A study of Mus musculus with 2 samples.

Results

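The 39 genes described here encode the enzymes and transporters of glycolysis and the proteins that cells make when oxygen is low. They were chosen by symbol from the 33938 gene lines of a single-nucleus RNA-seq study of the mouse embryonic neocortex, and all 39 were found. Nuclei of 1 library carried the genotype label MEN1-F/F and those of the other the label MEN1-NCKO. The labels do not spell out either name. The promoter or cell type that drives the deletion, the deleted part of Men1, the embryonic age and the number of embryos behind each library are not stated in the labels. Men1 encodes menin, a nuclear scaffold protein of histone methyltransferase complexes.

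Glycolysis splits glucose into pyruvate in the cytosol and yields ATP without oxygen. When oxygen falls, prolyl hydroxylases of the EGLN family stop marking the hypoxia-inducible factors (HIFs) for destruction, and these factors raise genes for glucose uptake, glycolysis, lactate export, mitophagy and collagen modification. In the developing cortex, dividing progenitors are known for a high glycolytic rate, whereas neurons shift towards oxidative metabolism as they mature.

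The targeted gene was read before any other. Levels are in CPM, the unique molecular identifiers (UMIs) of a gene scaled to a fixed total per library or population. Men1 was at 10.4 CPM in the library labelled F/F (278 UMIs) and at 13.6 CPM in the library labelled NCKO (563 UMIs). Its ratio, CPM in the library labelled NCKO over CPM in the library labelled F/F, was 1.32 (1.14–1.52). Upper-layer neuron-like nuclei gave 1.41 (1.03–1.93), layer 6 neuron-like nuclei 1.62 (1.05–2.56) and striatal nuclei 1.80 (1.11–2.98). Radial glia-like nuclei held 9 and 6 Men1 UMIs, a ratio of 0.545 (0.160–1.72). For intermediate progenitor-like nuclei the Men1 counts were 6 and 0, with an interval of 0 to 1.41. In the other populations compared below every interval included 1 too. Over all kept nuclei Men1 was therefore not lower in the library labelled NCKO, against that label. Tags at the 3′ end can only check the deletion if the deleted segment covers them, which is not known here, so these counts check nothing. Every direction below is a difference between the library labelled NCKO and the library labelled F/F, with this limit.

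With 1 library per label, spread between animals cannot be seen and no test was run. Brackets hold 95% intervals that cover counting error only, exact Poisson for CPM and exact conditional binomial for ratios. A gene was called lower or higher when its ratio passed 1.5-fold in either direction and it had at least 50 UMIs over both libraries (measured). After filtering, 6130 nuclei with 26819262 UMIs were kept in the library labelled F/F and 9807 nuclei with 41281704 UMIs in the library labelled NCKO, at a median of 3663.5 and 3581 UMIs per nucleus. Populations were rebuilt by clustering and named from marker genes, and 9 had at least 100 nuclei in each library. In the library labelled F/F their markers, summed, stood 2.84-fold to 44.9-fold above the rest of the nuclei. The range in the library labelled NCKO was 2.92-fold to 32.5-fold. The same markers named the populations, so these folds do not check the names. One of the 9 is striatal or lateral ganglionic eminence (LGE)-derived neuron-like, although the labels name cortex.

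The members, a list chosen with earlier results of these data known, were lower as a group. Over all kept nuclei they summed to 1503 CPM (1489–1518) in the library labelled F/F and to 972 CPM (963–982) in the library labelled NCKO, a ratio of 0.647 (0.638–0.656). All 39 were measured, 33 had a ratio below 1, and 18 were called lower, where 4.59% of the 17172 measured genes were. The count of members called higher was 0, where 4.72% of measured genes were. The median log2 ratio was -0.50 over the members and 0.03 over all measured genes. In nuclei thinned to 1000 UMIs, 73.0% (71.8–74.1) and 59.9% (58.9–60.9) held at least 1 UMI of any member, against 95.8% and 91.1% before thinning. No population is known to lack these enzymes, so a background share could not be given.

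**Figure D1:**
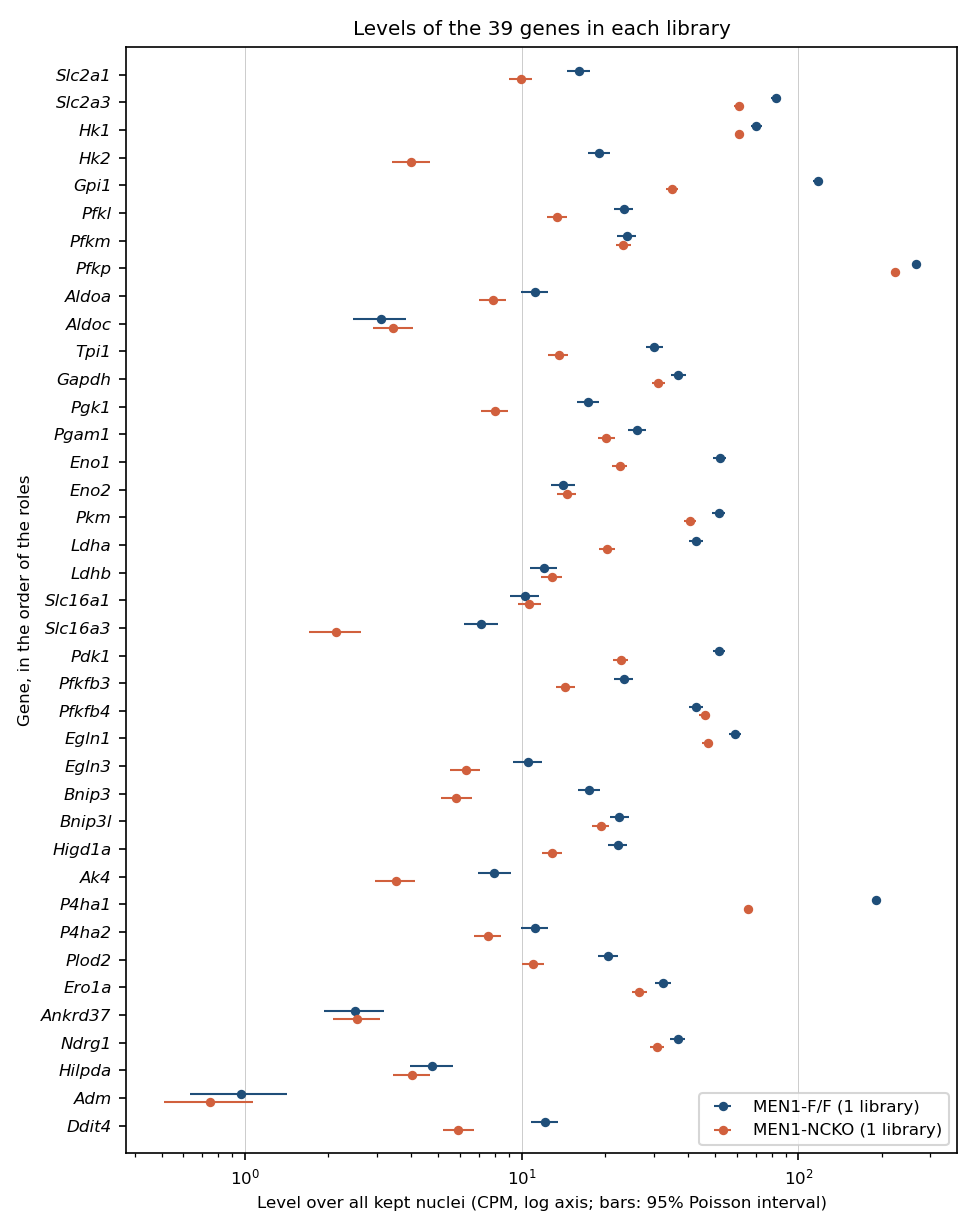
CPM of each of the 39 genes over all kept nuclei on a log axis, by role, in the library labelled F/F and the library labelled NCKO. Bars are exact Poisson 95% intervals (counting error only). Hk2, Gpi1, Slc16a3, Bnip3 and P4ha1 lie farthest apart, whereas Eno2, Ldhb, Slc16a1 and Pfkfb4 nearly coincide.

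The stretches of DNA just upstream of the gene starts are shown for 6 members, so that the letters HIFs read can be set beside the values. ACGTG is one form of the core of the element that HIFs bind. Hk2 (chr6:82774455-82774704, minus strand), Ldha (chr7:46845554-46845803, plus), Pgk1 (chrX:106186850-106187099, plus) and P4ha1 (chr10:59323046-59323295, plus) hold it and were called lower. Gpi1 (chr7:34230337-34230586, minus) was called lower without it. Ldhb (chr6:142507958-142508207, minus) lacks it and was not called. No member that holds ACGTG and was not called is among the 6 shown. Each line gives the 250 bases before the start, 5′ to 3′ on the gene's strand, from RefSeq on GRCm38.p6, with ACGTG or its reverse complement CACGT in capitals. These windows overlap no annotated exon in GENCODE vM21, except that of Gpi1, which reaches into an exon of the noncoding gene Gm12762.
Hk2: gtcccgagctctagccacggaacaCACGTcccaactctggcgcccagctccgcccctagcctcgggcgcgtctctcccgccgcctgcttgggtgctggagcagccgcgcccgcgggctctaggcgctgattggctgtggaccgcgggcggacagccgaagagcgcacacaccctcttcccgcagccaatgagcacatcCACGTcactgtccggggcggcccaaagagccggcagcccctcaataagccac
Ldha: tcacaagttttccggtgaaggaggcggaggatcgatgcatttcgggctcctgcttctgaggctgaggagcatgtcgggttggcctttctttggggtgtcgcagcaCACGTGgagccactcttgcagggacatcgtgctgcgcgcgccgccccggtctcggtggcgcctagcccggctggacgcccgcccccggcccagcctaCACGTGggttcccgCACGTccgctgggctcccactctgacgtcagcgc
Pgk1: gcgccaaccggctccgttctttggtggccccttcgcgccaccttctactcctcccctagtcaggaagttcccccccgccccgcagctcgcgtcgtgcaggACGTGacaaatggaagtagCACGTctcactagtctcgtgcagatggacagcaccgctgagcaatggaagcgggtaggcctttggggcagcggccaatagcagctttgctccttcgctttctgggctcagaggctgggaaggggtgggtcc
P4ha1: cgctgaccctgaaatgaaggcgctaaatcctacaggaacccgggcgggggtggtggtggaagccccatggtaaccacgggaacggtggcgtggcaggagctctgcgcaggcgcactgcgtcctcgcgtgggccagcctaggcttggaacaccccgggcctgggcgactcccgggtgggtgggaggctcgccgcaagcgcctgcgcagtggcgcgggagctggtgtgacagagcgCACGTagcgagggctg
Gpi1: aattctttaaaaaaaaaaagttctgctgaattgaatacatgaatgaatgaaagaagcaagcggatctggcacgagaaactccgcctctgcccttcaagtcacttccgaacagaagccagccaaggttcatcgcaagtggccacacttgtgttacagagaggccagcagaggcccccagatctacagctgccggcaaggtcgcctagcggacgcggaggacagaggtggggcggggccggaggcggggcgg
Ldhb: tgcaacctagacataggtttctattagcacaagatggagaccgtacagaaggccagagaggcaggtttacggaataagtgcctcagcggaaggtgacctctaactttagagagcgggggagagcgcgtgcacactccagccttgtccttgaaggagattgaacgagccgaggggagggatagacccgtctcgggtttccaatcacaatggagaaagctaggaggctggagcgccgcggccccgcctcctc
CACGTG reads as a match on both strands, so Ldha counts 5 matches in these lines, Hk2 and Pgk1 2 each, and P4ha1 1, which begins 16 bases before the start. A second RefSeq start of Ldha (chr7:46846832-46847081) has 0 matches. RefSeq windows were found for 35 of the 39 members, all but Bnip3l, Ndrg1, Plod2 and Slc2a3, and some genes had more than 1 start, which gave 52 windows. ACGTG on either strand was in 24 of these windows (46.2%), from 21 genes, and in 16.6% of all 32851 windows and 17.8% of the 21263 windows of protein-coding genes. The second core form, GCGTG, was in 61.5% of member windows, in 28.2% of all windows and in 33.8% of protein-coding windows. It is not marked in the lines above, where the Ldhb window holds 1 match of it and the P4ha1 window 2. Member windows were also richer in G and C, with a median of 62.8% against 55.6% for protein-coding windows, and the share of matches at equal G and C content was not tested. Of the members with a window, 11 of the 17 called lower and 10 of the 18 not called held ACGTG, so the motif did not sort the called genes from the rest. Eno1, Gpi1, Higd1a, Pdk1, Pfkl and Tpi1 were called lower without it in these windows. A match is a description of letters and not a bound site.

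Glucose entry was split between its isozymes. Hk2, the hexokinase known for HIF control, had the lowest ratio of the 39 genes, at 19.1 CPM (511 UMIs) in the library labelled F/F and 4.0 CPM (165 UMIs) in the library labelled NCKO, a ratio of 0.210 (0.175–0.251). Hk1, the hexokinase most neurons use, was at 70.4 and 61.2 CPM, a ratio of 0.868 (0.818–0.922). Slc2a1, the glucose transporter of the blood-brain barrier and glia, was at 16.1 and 9.93 CPM, a ratio of 0.618 (0.539–0.709). Endothelial cell-like nuclei, in which Slc2a1 was high, numbered 4 and 52, and their part in this ratio was not tested. Slc2a3, the neuronal glucose transporter, was at 82.7 and 61.1 CPM, a ratio of 0.738 (0.697–0.782). So 2 of the 4 genes of this group, Slc2a1 and Hk2, were called lower.

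The Hk2 ratio was lower in both neuronal populations where it was measured than in radial glia-like nuclei. Upper-layer neuron-like nuclei held 126 Hk2 UMIs (20.6 CPM) in the library labelled F/F and 11 (1.55 CPM) in the library labelled NCKO, a ratio of 0.0753 (0.0366–0.139). Striatal or LGE-derived neuron-like nuclei held 69 and 4 UMIs, at 22.9 and 0.962 CPM, a ratio of 0.042 (0.0111–0.112). Radial glia-like nuclei kept more of it, with 54 and 25 UMIs, at 106 and 40.2 CPM, a ratio of 0.379 (0.226–0.619). The interval in radial glia-like nuclei did not overlap those of the other 2 populations. With 20 added to each CPM, which draws low levels together, the Hk2 ratios were 0.531 (upper-layer), 0.488 (striatal) and 0.477 (radial glia-like), and that order no longer held. Hk1 was measured in 7 populations and called in 0 of them, with ratios from 0.719 in caudal ganglionic eminence (CGE)-derived interneuron-like nuclei to 1.06 in layer 5 neuron-like nuclei. Inside the striatal population, Hk1 was at 0.901 (0.712–1.14) in cluster 5 and at 0.474 (0.337–0.660) in cluster 6. Slc2a1 was called lower in its 3 measured populations, from 0.370 in striatal to 0.610 in migrating excitatory neuron-like nuclei. Its interval lay below 1 in 2 of the 3, and 4 of 14 alternatives ended the migrating call. Slc2a3 was called lower in 2 of 7, the migrating (0.593) and the striatal (0.624) populations.

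Upper glycolysis ran from 476 CPM to 320 CPM, and 3 of its 7 genes were called lower. Gpi1, the isomerase that turns glucose 6-phosphate into fructose 6-phosphate, was at 117 CPM (3148 UMIs) in the library labelled F/F and 34.9 CPM (1442 UMIs) in the library labelled NCKO, a ratio of 0.298 (0.279–0.317). Tpi1, triosephosphate isomerase, was at 30.2 and 13.6 CPM, a ratio of 0.451 (0.404–0.502). Of the phosphofructokinases, which catalyse the committed step, only Pfkl was called, at 23.4 and 13.4 CPM (0.572, 0.509–0.642). The remaining phosphofructokinases were closer together, Pfkp at 267 and 223 CPM (0.837, 0.811–0.863) and Pfkm at 23.9 and 23.3 CPM (0.973, 0.880–1.08). The aldolases differed in direction, Aldoa at 11.1 and 7.87 CPM (0.706, 0.602–0.829) and Aldoc at 3.09 and 3.44 CPM (1.11, 0.842–1.48).

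Gpi1 was lower in every population in which it was measured. Its CPM went from 198 to 56.3 in striatal, 112 to 36.4 in medial ganglionic eminence (MGE)-derived interneuron-like, 110.0 to 16.1 in migrating, 108 to 24.5 in upper-layer, 95.5 to 27.6 in layer 5, 90.4 to 25.7 in radial glia-like, 66.4 to 15.3 in layer 6 and 49.3 to 21.9 in CGE-derived nuclei, the library labelled F/F given before the library labelled NCKO. All 8 ratios were past 1.5-fold, from 0.146 in migrating nuclei (207 and 30 UMIs) to 0.444 in CGE-derived nuclei. Tpi1 was called lower in 6 of 6 populations, from 0.304 (striatal) to 0.607 (layer 6). Pfkl was called lower in 4 of 6, from 0.445 (MGE-derived) to 0.794 (migrating). Pfkp varied more between populations than between libraries: in the library labelled F/F it was at 442 CPM in striatal and 433 in layer 5 nuclei and at 88.8 in migrating and 35.4 in radial glia-like nuclei. It was called lower in 1 of 7 populations, the migrating one (0.580), and stood at 0.999 in MGE-derived nuclei pooled. Within those, Pfkp was at 0.683 (0.513–0.909) in cluster 4, 0.803 (0.680–0.951) in cluster 12 and 1.04 (0.849–1.28) in cluster 26. Pfkm was called in 0 of 6 (0.788 to 1.06), and Aldoa in 1 of 3, the upper-layer population (0.60).

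Lower glycolysis summed to 198 and 137 CPM, and 2 of its 6 genes were called lower. Eno1, the enolase of most tissues, was at 52.0 CPM (1394 UMIs) and 22.6 CPM (934 UMIs), a ratio of 0.435 (0.400–0.473). Pgk1, phosphoglycerate kinase, was at 17.4 and 7.99 CPM, a ratio of 0.460 (0.398–0.531). The other 4 genes were not called. Gapdh, glyceraldehyde 3-phosphate dehydrogenase, was at 36.9 and 31.2 CPM (0.845, 0.778–0.919), and Pgam1, phosphoglycerate mutase, at 26.2 and 20.3 CPM (0.773, 0.698–0.855). Pkm, pyruvate kinase, was at 51.5 and 40.6 CPM (0.789, 0.735–0.848). Eno2, the neuronal enolase, was at 14.1 and 14.6 CPM (1.03, 0.904–1.17). Gapdh, Pgam1, Eno1 and Ldha have processed copies elsewhere in the genome, so their counts are uncertain to that extent.

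Eno1 had nearly the same ratio in all 7 populations where it was measured. Its CPM went from 120 to 56.3 in radial glia-like, 57.9 to 24.1 in migrating, 54.0 to 22.5 in upper-layer, 50.5 to 22.4 in striatal, 40.8 to 19.0 in MGE-derived, 39 to 17 in layer 5 and 34.9 to 13.9 in layer 6 nuclei. The 7 ratios lay between 0.399 (layer 6) and 0.469 (radial glia-like), and their intervals overlapped. After thinning, Eno1 stood at 0.697 in radial glia-like and 0.775 in MGE-derived nuclei, which ended both calls. Pgk1 was called lower in 4 of 5 populations, from 0.368 (striatal) to 0.639 (MGE-derived), and was at 0.833 in layer 6. Its interval lay below 1 in 3 of the 5. Pgam1 was called in 1 of 6, the upper-layer population (0.665), and Gapdh in 0 of 7 (0.683 to 1.02). Pkm was called in 2 of 9, the intermediate progenitor-like (0.486, 41 and 12 UMIs) and layer 5 (0.638) populations, and stood at 1.44 (0.860–2.48) in CGE-derived nuclei. Its intermediate progenitor-like ratio was 1.0 after thinning.

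At the lactate and pyruvate branch, 3 of 5 genes were called lower and the group's median log2 ratio was -1.07. Ldha, the lactate dehydrogenase subunit that favours lactate, was at 42.7 CPM (1145 UMIs) and 20.3 CPM (839 UMIs), a ratio of 0.476 (0.435–0.521). Pdk1, the kinase that switches off pyruvate dehydrogenase, was at 51.6 and 22.8 CPM, a ratio of 0.441 (0.405–0.479). Slc16a3, the lactate exporter of glycolytic cells, was at 7.16 and 2.13 CPM, a ratio of 0.298 (0.229–0.385). Their counterparts were level, Ldhb, the subunit of oxidative tissues, at 12 and 12.9 CPM (1.07, 0.931–1.23) and Slc16a1, the more widely used monocarboxylate transporter, at 10.3 and 10.7 CPM (1.04, 0.892–1.21).

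Ldha was called lower in 7 of 7 populations. It went from 98.3 to 38.6 CPM in radial glia-like, 51.6 to 16.1 in migrating, 45.2 to 18 in upper-layer, 44.3 to 22.8 in layer 5, 44.2 to 19.2 in striatal, 30.4 to 18 in layer 6 and 29.8 to 13.3 in MGE-derived nuclei. The lowest ratio was 0.312 (0.200–0.474) in migrating nuclei and the highest 0.592 (0.447–0.784) in layer 6. Pdk1 was called lower in 6 of 6, from 0.284 (0.202–0.393) in MGE-derived to 0.612 (0.455–0.824) in layer 5 nuclei. Its level in the library labelled F/F was highest in striatal nuclei, at 72.8 CPM, which went to 32.0 CPM. Ldhb stood at or above 1 in its 5 measured populations (1.04 to 1.32), with every interval including 1. Slc16a3 was measured only in striatal nuclei, with 39 and 13 UMIs (0.241, 0.118–0.462), and Slc16a1, highest in layer 6 at 28.2 CPM, was called in 0 of 3.

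**Figure D2:**
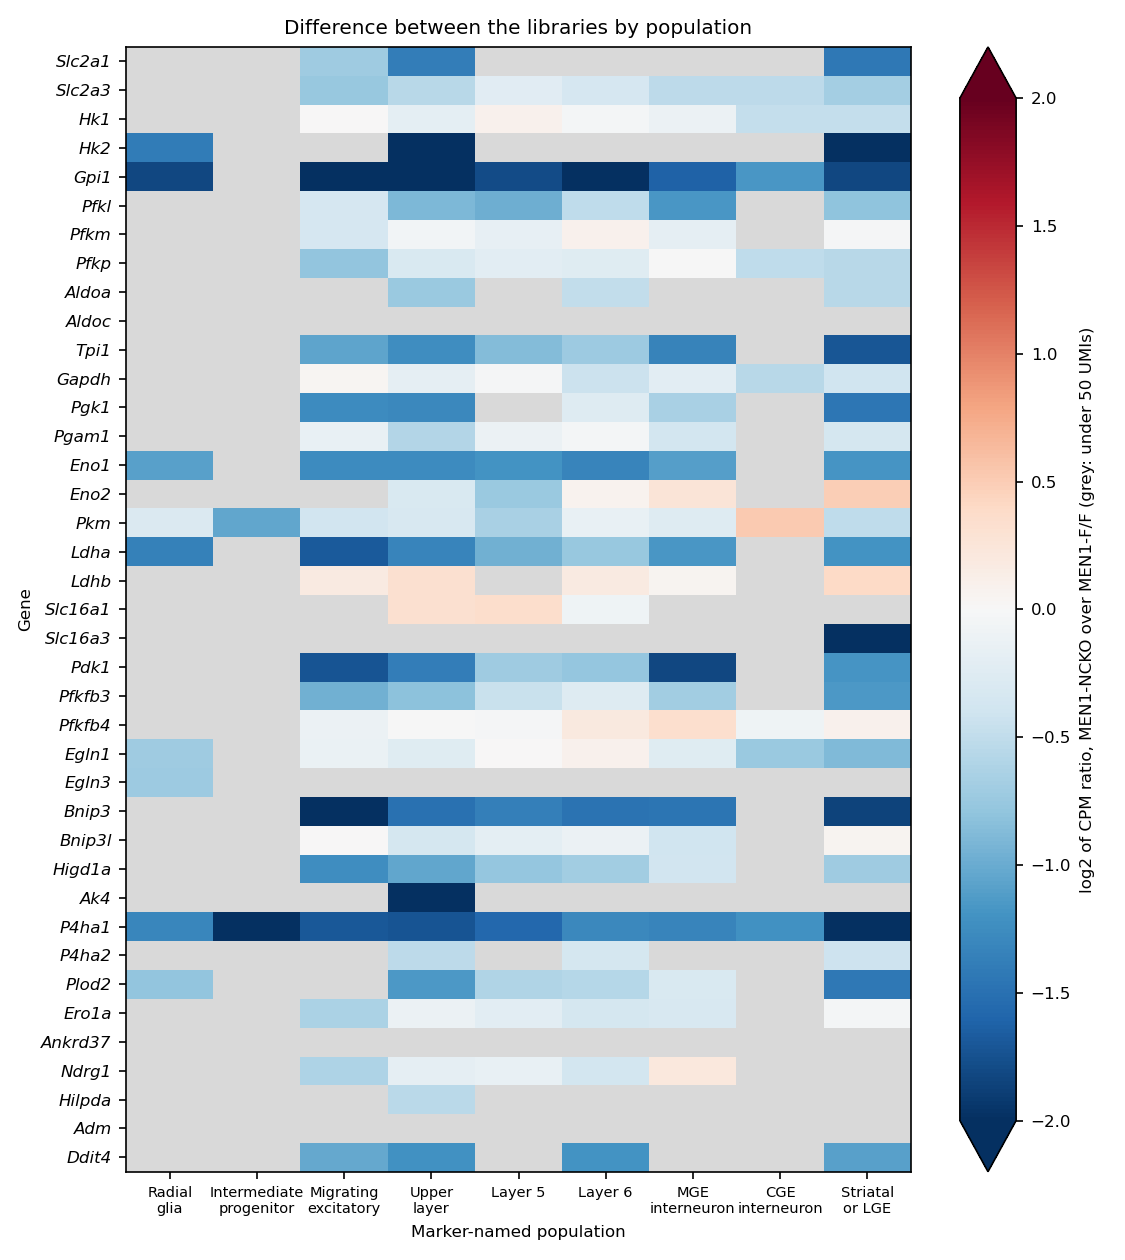
Log2 CPM ratio (library labelled NCKO over library labelled F/F) of the 39 genes, rows by role, in 9 marker-named populations; grey marks fewer than 50 UMIs over both libraries and the colour scale is clipped at 2 in either direction. Gpi1, P4ha1, Eno1 and Ldha are lower in each population where they were measured, and Ldhb and Pfkfb4 pass 1.5-fold in none.

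The regulators split. Pfkfb3, which makes the activator of phosphofructokinase, was at 23.4 and 14.4 CPM (0.614, 0.548–0.689) and was called lower in 4 of 6 populations (0.450 in striatal to 0.835 in layer 6). Pfkfb4, its relative, was at 42.8 and 45.9 CPM (1.07, 0.996–1.15) and was called in 0 of 7 (0.918 to 1.26). Of the oxygen sensors, Egln3 was at 10.5 and 6.27 CPM (0.597, 0.502–0.709) and Egln1, the main HIF prolyl hydroxylase, at 58.9 and 47.0 CPM (0.798, 0.746–0.853). Egln3 reached 50 UMIs only in radial glia-like nuclei, at 98.3 and 59.5 CPM (0.605, 0.385–0.945), and its ratio there was 1.04 after nuclei were thinned to 1000 UMIs. Egln1 was called lower in 3 of 8 populations, striatal (0.542), CGE-derived (0.598) and radial glia-like (0.610), and was level in layer 5 (1.01) and layer 6 (1.06). After thinning, the Egln1 ratio in CGE-derived nuclei was 1.19.

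Among mitochondrial HIF targets, 3 of 4 were called lower. Bnip3, a mitophagy receptor, was at 17.5 CPM (469 UMIs) and 5.81 CPM (240 UMIs), a ratio of 0.332 (0.283–0.389). It was called lower in 6 of 6 populations, from 0.205 (0.0968–0.397) in migrating to 0.388 (0.213–0.703) in layer 5 nuclei. Bnip3l, the paired receptor, was at 22.6 and 19.3 CPM (0.855, 0.768–0.952) and was called in 0 of 6 (0.755 to 1.03). Higd1a, an inner membrane protein, was at 22.2 and 12.9 CPM (0.580, 0.515–0.653) and was called in 5 of 6, all but the MGE-derived population (0.770). Ak4, a mitochondrial adenylate kinase, was at 7.98 and 3.51 CPM (0.440, 0.354–0.546), and in upper-layer nuclei it had 48 and 5 UMIs (0.0898, 0.0279–0.225).

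The collagen and endoplasmic reticulum enzymes summed to 254 and 111 CPM, a ratio of 0.437 (0.421–0.454). P4ha1, a catalytic subunit of collagen prolyl hydroxylase, accounted for most of that sum, at 190.2 CPM (5100 UMIs) and 66.0 CPM (2723 UMIs), a ratio of 0.347 (0.331–0.363). It was the one member measured and called lower in all 9 populations. Its CPM went from 305 to 124 in radial glia-like, 241 to 74.5 in migrating, 224 to 55.8 in striatal, 213 to 64.4 in upper-layer, 203 to 50.5 in intermediate progenitor-like, 195 to 79.9 in layer 6, 130.5 to 44.1 in layer 5, 124 to 53.7 in CGE-derived and 108 to 43.4 in MGE-derived nuclei. The ratios ran from 0.249 in intermediate progenitor-like to 0.433 in CGE-derived nuclei. Plod2, a collagen lysyl hydroxylase, was at 20.5 and 11 CPM (0.536, 0.473–0.609) and was called lower in 4 of 6 populations, from 0.373 (striatal) to 0.809 (MGE-derived). Its interval lay below 1 in 3 of the 6. P4ha2, at 11.1 and 7.56 CPM (0.678, 0.577–0.797), lay just short of the fold and was called in 0 of 3. Ero1a, the oxidase that forms disulphide bonds, was at 32.4 and 26.6 CPM (0.823, 0.753–0.901) and was called in 1 of 6, the migrating population (0.642), where 7 of 14 alternatives ended the call.

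Of the 5 remaining HIF targets only Ddit4, a brake on mTORC1, was called lower, at 12.1 and 5.91 CPM (0.488, 0.411–0.578), and it was called in 4 of 4 populations (0.431 to 0.491). Ndrg1 was at 36.6 and 30.9 CPM (0.844, 0.776–0.918) and was called in 1 of 5, the migrating population (0.650). Hilpda, a lipid droplet protein, was at 4.74 and 4.02 CPM (0.849, 0.670–1.08). Ankrd37 was at 2.5 and 2.54 CPM (1.02, 0.742–1.40). Adm, the vessel peptide adrenomedullin, was at 0.969 and 0.751 CPM (26 and 31 UMIs; 0.775, 0.445–1.36). Aldoc, Ankrd37 and Adm did not reach 50 UMIs in any of the 9 populations.

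Each of the 9 compared populations had lower summed members in the library labelled NCKO. Of these 9, intermediate progenitor-like nuclei had the lowest ratio, 1251 to 630 CPM (0.503, 0.425–0.594), with both measured members, Pkm and P4ha1, called lower (9.04% of its measured genes, with 9.29% called higher). Radial glia-like nuclei went from 1942 to 1036 CPM (0.533, 0.482–0.590), with 8 of 9 called lower (6.14% of measured genes, with 7.42% higher). Migrating nuclei went from 1411 to 774 CPM (0.549, 0.514–0.585), with 16 of 26 called lower (6.91%, with 7.58% higher), and striatal nuclei from 1952 to 1103 CPM (0.565, 0.543–0.587), with 18 of 31 (4.0%, with 6.19% higher). Upper-layer nuclei went from 1506 to 914 CPM (0.607, 0.588–0.627), with 18 of 34 called lower (6.48%, with 5.33% higher). CGE-derived nuclei went from 1051 to 691 CPM (0.657, 0.589–0.733), with 3 of 9 (4.62%, with 8.73% higher), and MGE-derived nuclei from 1235 to 871 CPM (0.705, 0.670–0.742), with 10 of 26 (4.54%, with 6.27% higher). Layer 6 nuclei went from 1291 to 934 CPM (0.723, 0.695–0.753), with 9 of 30 (4.46%, with 7.55% higher), and layer 5 nuclei from 1457 to 1058 CPM (0.726, 0.690–0.763), with 12 of 25 (4.4%, with 6.52% higher). No member was called higher in any of these 9 populations. The intervals of layer 5 and layer 6 did not overlap those of radial glia-like, intermediate progenitor-like, migrating, upper-layer and striatal nuclei. Median UMIs per nucleus in layer 5 differed, 7152 and 5571, and their part in its values was not tested.

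**Figure D3:**
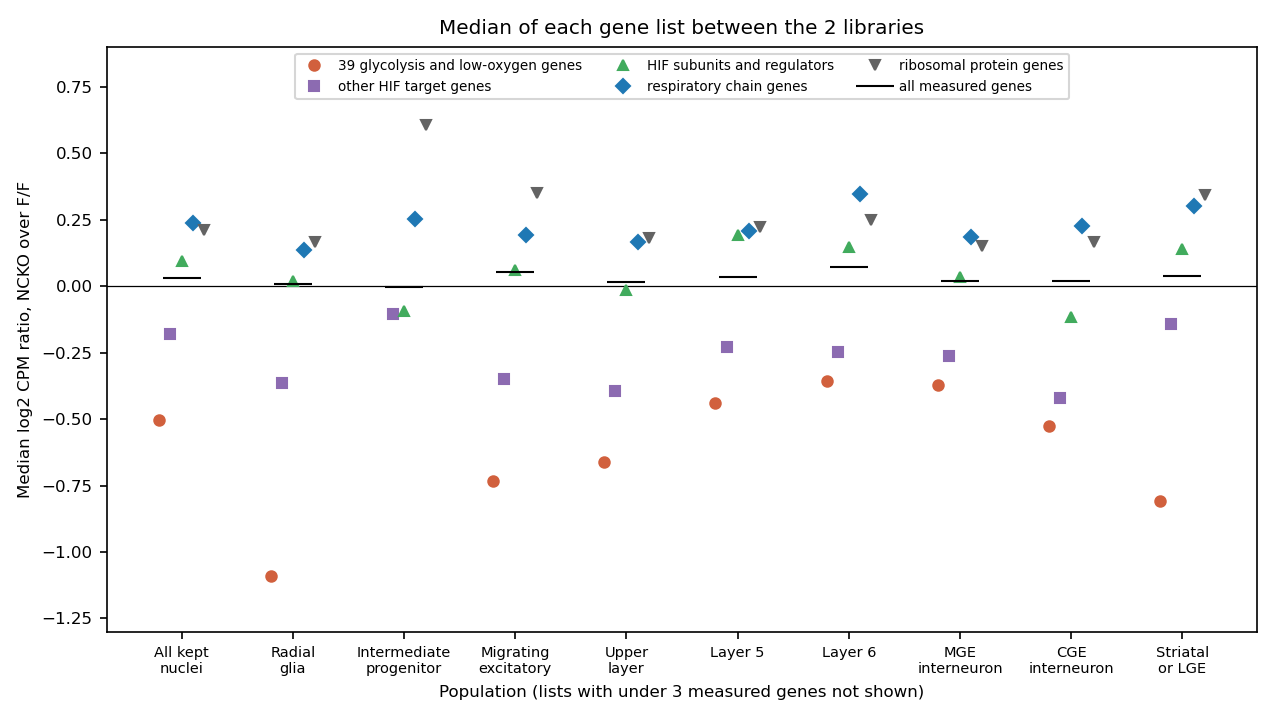
Median log2 CPM ratio of measured genes in the members, other HIF targets, the HIF pathway, the respiratory chain, ribosomal proteins and all genes, in all kept nuclei and 9 populations. The members lie lowest in each population with a median, at -0.50 over all kept nuclei, and ribosomal genes lie above 0.

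The difference also held inside populations. The largest upper-layer cluster was cluster 3 in the library labelled F/F (629 of 1280 nuclei) and cluster 2 in the library labelled NCKO (701 of 1553). Member sums in cluster 2 were 1463 and 876 CPM, in cluster 3 they were 1497 and 895 CPM, and in cluster 7 they were 1567 and 981 CPM. The median log2 ratios of the measured members there were -0.40, -0.63 and -0.66. Both striatal clusters had negative medians (-0.64 and -0.82), as did the 3 MGE-derived (-0.26, -0.44 and -0.89) and the 3 layer 6 clusters with a median (-0.40, -0.38 and -0.07). In migrating nuclei the difference depended on how nuclei were grouped: when clusters were built without the members and without genes over 2-fold apart between the libraries, 6 of 21 members were called lower there (5.24% of measured genes) in place of 16 of 26 (6.91%), with a median of -0.20 in place of -0.73. Pfkp (1.01) and Ndrg1 (1.08) were no longer below 1 there.

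Shares within enzyme families, compared between the libraries, show which isozyme carried the difference. A share inside 1 library sets the UMIs of different genes side by side, with any difference in how well each is counted. A family here is the isozymes among the 39 genes. Hk2 made up 21.3% (19.7–23.0) of hexokinase UMIs in the library labelled F/F and 6.13% (5.26–7.11) in the library labelled NCKO, with exact Clopper-Pearson intervals. In upper-layer nuclei it went from 21.7% (18.4–25.3) to 2.34% (1.17–4.15), in striatal nuclei from 22.9% (18.3–28.1) to 1.70% (0.466–4.30), and in migrating nuclei from 22.1% (16–29.2) to 0.781% (0.0198–4.28). Radial glia-like nuclei differed in that Hk2 held 74.0% (62.4–83.5) of hexokinase UMIs in the library labelled F/F and 54.3% (39–69.1) in the library labelled NCKO. Those last intervals overlapped.

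Ldha held 78.05% (75.8–80.1) and 61.2% (58.6–63.8) of lactate dehydrogenase UMIs, with the largest gap among the populations plotted in migrating nuclei, from 74.6% (66.2–81.8) to 44.8% (32.6–57.4). Eno1 held 78.6% (76.6–80.5) and 60.8% (58.4–63.3) of enolase UMIs. In striatal nuclei its share went from 66.1% (59.6–72.2) to 38.1% (32.0–44.5), so that Eno2 held the larger part there in the library labelled NCKO. In radial glia-like nuclei Eno1 kept nearly all enolase UMIs, at 96.8% and 94.6%. Slc16a3 went from 41.1% (36.6–45.7) to 16.7% (13.6–20.1) of the summed UMIs of Slc16a1 and Slc16a3, a sum that leaves out other monocarboxylate transporters such as Slc16a7. The phosphofructokinase mix moved little, with Pfkl at 7.45% and 5.15% and Pfkp at 84.9% and 85.9%.

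**Figure D4:**
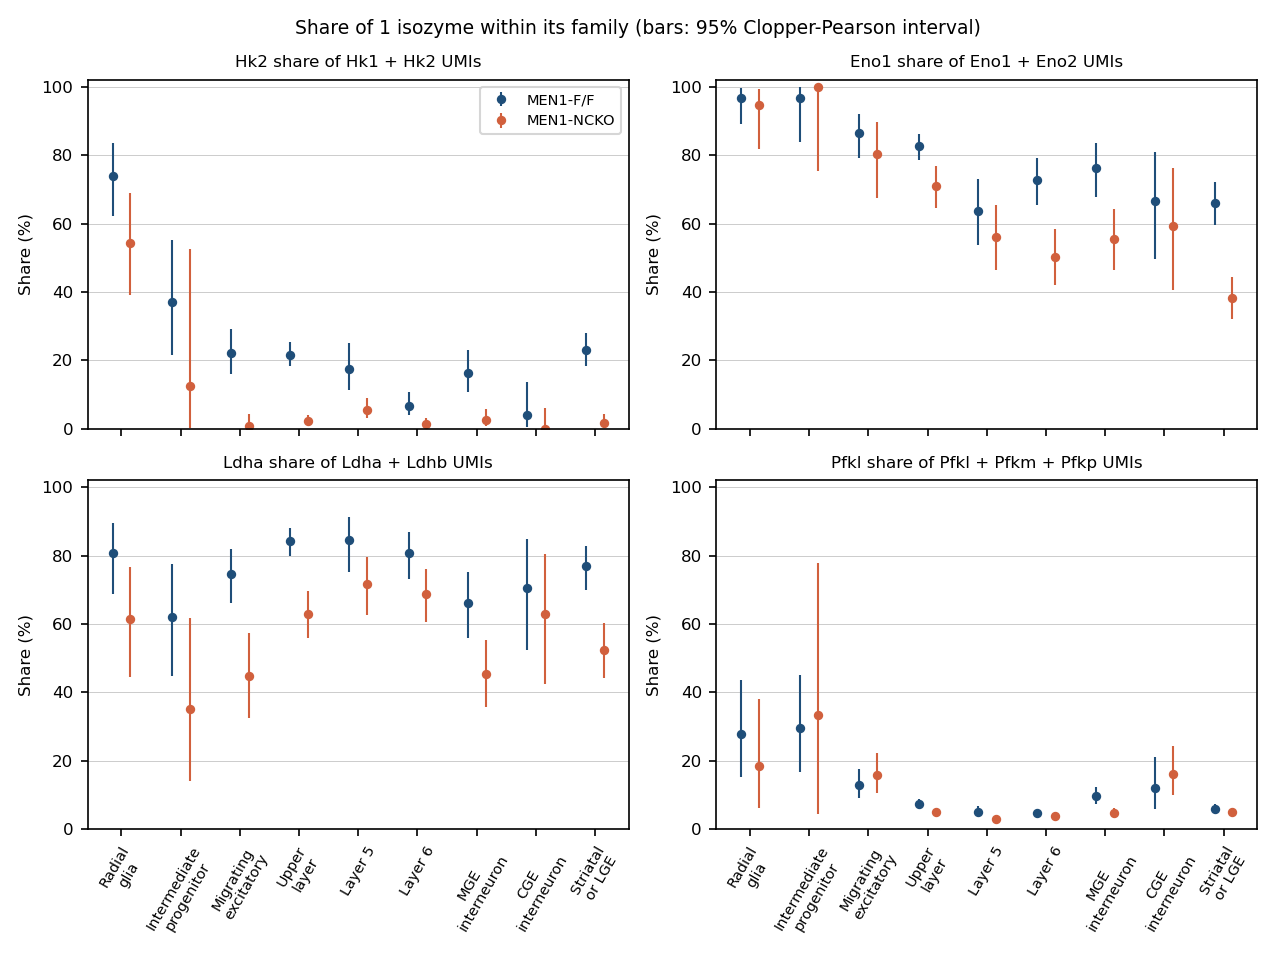
Share (%) of the UMIs of each enzyme family held by Hk2, Eno1, Ldha and Pfkl, by population, in the library labelled F/F and the library labelled NCKO, with exact Clopper-Pearson 95% bars. The Hk2 share in upper-layer nuclei goes from 21.7% to 2.34%, while the Eno1 share in radial glia-like nuclei is 96.8% and 94.6%.

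Baseline levels in the library labelled F/F differed among the 9 compared populations by gene. Of the 9, radial glia-like nuclei had the highest level of Hk2, at 106 CPM against 3.40 in CGE-derived nuclei (2 UMIs), of Egln3, at 98.3 against 1.39 in layer 6, and of P4ha1, at 305. Of the same 9 they were also highest for Eno1 (120 CPM, with 147 in oligodendrocyte precursor-like nuclei outside the 9), Egln1 (100.2), Plod2 (100.2), Ldha (98.3), Tpi1 (60.9), Pfkfb3 (49.1) and Ak4 (39.3). Striatal nuclei were the highest of the 9 for Pfkp (442), Gpi1 (198), Slc2a3 (135) and Pdk1 (72.8). The remaining highest levels were spread, with Ndrg1 in upper-layer (62.6), Gapdh in layer 6 (47.7), Pkm in intermediate progenitor-like (83.1) and Bnip3 in migrating nuclei (28.7). Outside these 9 populations, Slc2a1 was at 1244 CPM (27 UMIs) in the 4 endothelial cell-like nuclei of the library labelled F/F and at 956 CPM (166 UMIs) in the 52 of the library labelled NCKO. These UMIs also enter the Slc2a1 ratio over all kept nuclei, and their part in it was not tested. Hk2 was at 263 and 301 CPM in microglia-like nuclei (18 and 33 UMIs), a ratio of 1.14 (0.624–2.15).

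**Figure D5:**
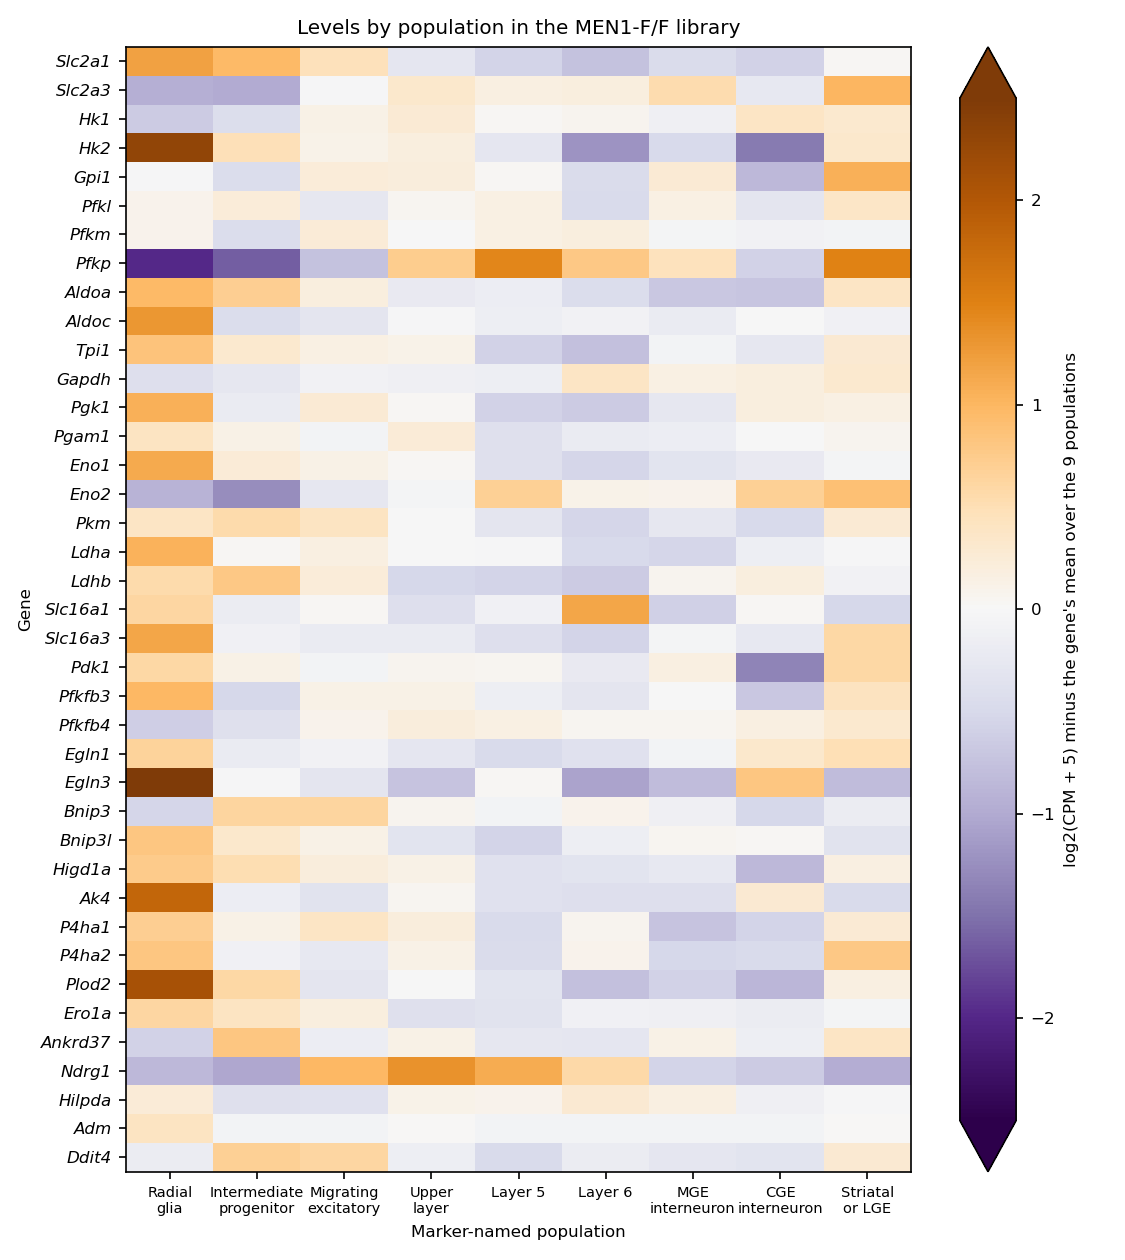
Level of each of the 39 genes in 9 populations of the library labelled F/F, as log2(CPM + 5) minus the gene's mean over the populations. Hk2, Egln3, Plod2 and Ak4 are highest in radial glia-like nuclei, and Pfkp and Slc2a3 in striatal nuclei.

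The rest of the pathway was read from lists of genes that are not members, also chosen with earlier results of these data known. Of 13 HIF pathway genes, 0 were called lower over all kept nuclei, and their median log2 ratio was 0.10. The list's genes with the most UMIs were Crebbp, a coactivator, at 249 and 260.4 CPM, and Arnt2, a HIF partner, at 150.3 and 155 CPM. Epas1, the vessel-enriched HIF subunit, was the 1 called higher, with 36 and 133 UMIs (2.40, 1.65–3.57). The 8 endothelial markers moved with it, summed at 21.3 and 54.9 CPM over all kept nuclei, and their part in the Epas1 ratio was not tested. Hif1a, picked after its values were seen, was at 58.0 and 45.9 CPM (0.791, 0.739–0.846) over all kept nuclei and at 116 and 53.1 CPM (0.458, 0.289–0.712) in radial glia-like nuclei.

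Of 22 measured further HIF targets, 7 were called lower and 0 higher, with a median log2 ratio of -0.18. Their most abundant genes were Rora, at 395 and 352 CPM, and Wsb1, at 158 and 153 CPM. The 7, named after their values were seen, were Vegfa, Kdm3a, Gys1, Mxi1, Narf, Zfp395 and Loxl2. Vegfa, the vessel growth factor, was at 97.3 and 37.5 CPM (0.385, 0.361–0.410) and, in radial glia-like nuclei, at 322 and 69.1 CPM (0.215). Kdm3a, a histone demethylase, was at 89.7 and 50.1 CPM (0.559).

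Glycolytic genes outside the 39 had a median log2 ratio of -0.03. Of 16 measured, 3 were called lower, Pklr (0.453), Pgm1 (0.661) and Slc2a4 (0.632), and 1 higher, Tigar (1.56), all 4 named after their values were seen. Slc16a7, a pyruvate carrier, was at 168 and 164 CPM and Minpp1 at 35.7 and 39.3 CPM. Of 26 citrate cycle and pyruvate entry genes, 0 were called in either direction, with a median of 0.13, and Ogdh was at 71.9 and 71.4 CPM. The pentose phosphate list had a median of 0.16, with Tkt at 44.1 and 46.3 CPM and Rpia at 23.6 and 25.8 CPM, and with 1 of 8 called higher, Taldo1 (1.58), named after its value was seen. The nuclear-encoded respiratory chain had a median of 0.24, with 1 lower and 5 higher of 74, and its most abundant genes were Atp5o, at 526 and 431 CPM, and Ndufs4, at 107 and 114 CPM.

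Other measures moved between the libraries beside the members, and their part in the members' values was not tested. Cytosolic ribosomal protein genes were at 3454 and 4024 CPM (median log2 ratio 0.21 over 83 genes, Rps2 at 95.1 and 108 CPM), with medians from 0.15 to 0.61 over the populations. Immediate-early and stress genes were at 156 and 207 CPM, with Hspa5 at 56.6 and 77.3 CPM and Hsp90aa1 at 54.6 and 74.1 CPM. Mitochondrially encoded genes, a sign of cytoplasm left with nuclei, were at 1807 and 2217 CPM (1.23) over all kept nuclei and at 884 and 1727 CPM (1.95, 1.75–2.18) in radial glia-like nuclei. In CGE-derived nuclei that ratio was 0.987. The 6 erythroid markers were at 81.9 and 113 CPM over all kept nuclei and at 112 and 72.4 CPM in radial glia-like nuclei. The 8 microglia markers were at 55.8 and 59.4 CPM over all kept nuclei. In upper-layer nuclei, microglia markers were at 25.8 and 18.7 CPM and endothelial markers at 8.65 and 9.14 CPM.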

How the data were processed

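Single-nucleus RNA of the neocortex was measured in 2 libraries, 1 per genotype label, with droplet-based 10x Genomics 3′ libraries, per the labels. The deposited files hold raw UMI counts per gene and barcode, which per the file headers came from Cell Ranger 6.1.0. The submitters' processing notes name the build mm10 and Seurat. Whether counting used strand is not stated in the labels, so genes that overlap a neighbour (for example Hk2, Gpi1, Bnip3, Pfkp, Pfkm, Tpi1, Gapdh, Hk1, Aldoa and Ankrd37) can share UMIs. Aldoa stands on 2 gene lines, and the line with 726 UMIs, not that with 81, was used.

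The files hold 6477 and 10750 barcodes with 30116311 and 50115162 UMIs, and 15 barcodes occur in both libraries. Kept barcodes had at least 500 genes (10 and 19 failed) and at most 5% mitochondrial UMIs (1 and 0 failed), and were not among the highest doublet scores from a Scrublet-like scoring (336 and 924 removed). Nuclei were scaled to 10000 UMIs, log-transformed, reduced from 2000 variable genes to 30 principal components and clustered jointly with the Leiden algorithm at resolution 1 (Python 3.11.15, scikit-learn 1.9.0, leidenalg 0.10.2, igraph 0.11.9, numpy 2.4.6, scipy 1.17.1, pandas 2.3.3, matplotlib 3.10.9). Of 53 clusters, 33 were named from marker genes. A name needed at least 3 markers raised 1.5-fold and the highest score among the classes. That score had to reach 0.5 and exceed the next class by at least 0.1. Clusters such as 9, 15, 20 and 23 met these rules but got no name, as their top genes favoured a different class. Cluster 10 met them too and was held back for a pair of its leading genes. A further condition, a leading marker or a score gap of 0.5, was set after the clusters were seen. The unnamed clusters held 1121 and 2345 nuclei.

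UMIs were summed per library and population and scaled to CPM here. The ratio code was tested on simulated data. The members and all gene lists were chosen with earlier results of these data known. Values were given for all 39 members over all kept nuclei and, per population, for those with at least 50 UMIs there, in full for the members a result turns on and otherwise as the lowest and highest ratio. Baseline levels and isozyme shares per population were also given below that minimum. Of lists outside the 39, the counts called and the 2 genes with the most UMIs were named, of which some are not reported here. Alternatives covered pseudocounts, UMI minimums, scaling, thinning, doublets, barcode filters, clustering and cluster weights.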

Additional observations from a re-analysis of the deposited data

Results flagged for a closer look

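Eno2, the neuronal enolase, moved in opposite directions in 2 populations. Striatal or LGE-derived neuron-like nuclei held 78 Eno2 UMIs in the library labelled F/F and 151 in the library labelled NCKO, a ratio of 1.40 (1.06–1.87). Within that population, cluster 6 stood at 2.16 (1.30–3.73) and cluster 5 at 1.13 (0.805–1.60). Layer 5 neuron-like nuclei held 38 and 50 UMIs, a ratio of 0.60 (0.386–0.940). Brackets cover counting error only, and the difference between the populations was not tested.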

How the results depend on the processing

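The median log2 ratio of the members stayed below 0 under every alternative that gave one, over all kept nuclei (-0.56 to -0.24) and in each population, for example radial glia-like (-1.24 to -0.77), upper-layer (-0.74 to -0.32), striatal (-0.85 to -0.47) and migrating nuclei (-0.79 to -0.20). Of 119 such alternative medians, 118 moved by no more than the median half-width of the members' own log2 counting intervals in that population. That limit is wide in small populations, so a shift such as -0.73 to -0.20 in migrating nuclei can fall within it. With 20 added to each CPM the median over all kept nuclei was -0.24. Of the alternative counts of members called lower, 32 of 133 differed from the main count by over 1.5 times. With 20 added to each CPM they were 6 of 39 over all kept nuclei, where 0.245% of measured genes were. They were 9 of 31 in striatal (0.632%), 7 of 34 in upper-layer (1.1%) and 7 of 26 in migrating nuclei (2.11%). MGE-derived nuclei gave 5 of 26 (0.861%), layer 6 nuclei 3 of 30 (0.649%) and layer 5 nuclei 4 of 25 (0.796%). With any gene of at least 1 UMI kept they were 24 of 39 in radial glia-like (14.2% of all genes kept), 24 of 37 in intermediate progenitor-like (14.1%), 17 of 38 in MGE-derived (15.6%) and 17 of 38 in CGE-derived nuclei (15.4%). With at least 20 UMIs they were 18 of 28 in radial glia-like (9.99%), 10 of 16 in intermediate progenitor-like (12.8%) and 8 of 21 in CGE-derived nuclei (7.94%). With at least 200 UMIs, which leaves fewer genes, they were 10 of 21 in upper-layer (3.63%) and 7 of 14 in striatal nuclei (1.91%). Layer 6 nuclei gave 5 of 16 (2.37%), migrating nuclei 3 of 6 (4.42%) and layer 5 nuclei 2 of 8 (2.01%). MGE-derived nuclei gave 2 of 9 (2.24%) and radial glia-like nuclei 1 of 1 (3.23%). After thinning, which also leaves fewer genes, they were 11 of 21 in upper-layer (6.64%) and 7 of 12 in striatal nuclei (4.61%). Migrating nuclei gave 6 of 11 (7.01%), MGE-derived nuclei 5 of 10 (5.42%) and layer 6 nuclei 4 of 14 (4.01%). Layer 5 nuclei gave 1 of 4 (5.16%) and radial glia-like nuclei 1 of 1 (8.52%). Without doublet removal they were 9 of 24 in migrating (5.46%), 5 of 12 in CGE-derived (4.53%) and 1 of 1 in intermediate progenitor-like nuclei (9.73%). With clusters built without members and genes over 2-fold apart they were 6 of 21 in migrating nuclei (5.24%). The cause was not tested. Of 96 calls of a member as lower in a population, 41 held under all alternatives and 72 under all but the added pseudocounts. Of 3117 single ratios 166 moved and 6 reversed. The changed UMI minimums leave a single ratio as it is, so they could not end a call or move a ratio, yet they are counted here. A ratio was also read where under 50 UMIs remained, as after thinning. These counts therefore overstate how firm the calls are. After thinning Egln1 in CGE-derived nuclei stood at 1.19, Pkm in intermediate progenitor-like nuclei at 1.0 and Egln3 in radial glia-like nuclei at 1.04. In migrating nuclei Ndrg1 stood at 1.05 without doublet removal and at 1.08 with the rebuilt clusters, and Pfkp at 1.01 with the latter. Of 594 isozyme shares 58 moved. The names without the leading-marker condition were an alternative chosen after seeing the data. No paired analysis was possible because each genotype label has 1 library and the labels carry no replicate numbers. Thinning and high UMI minimums gave no median where under 3 members remained. Depth limits the small populations, where few members reached 50 UMIs.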

Other observations

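Populations left out of the comparison were read as values only. In the nuclei that received no name, members went from 1538 CPM in the library labelled F/F to 1019 CPM in the library labelled NCKO (0.663, 0.644–0.682). Oligodendrocyte precursor-like nuclei (91 and 193) went from 1877 to 902 CPM (0.481, 0.427–0.541). Among their members, Eno1 went from 147 to 48.0 CPM (42 and 31 UMIs) and P4ha1 from 297 to 121 CPM. Astrocyte-like nuclei stood at 0.539 (0.435–0.668), mural cell-like at 0.491 (0.381–0.631), ganglionic eminence progenitor-like at 0.587 (0.502–0.686) and meningeal fibroblast-like at 0.615 (0.498–0.764). Subplate neuron-like nuclei (51 and 57) stood at 0.740 (0.642–0.852), under a weakly held name. Their markers, summed, stood only 2.456-fold (F/F) and 2.001-fold (NCKO) above the rest of the nuclei. They were cluster 30, with a subplate score of 0.6312. Clusters 23 (2.6821) and 36 scored higher for subplate but received no name, so this ratio may not describe subplate neurons.

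The differences were smaller in 2 small populations. Cajal-Retzius cell-like nuclei (39 and 115) went from 1029 to 861 CPM (0.836, 0.722–0.970). Microglia-like nuclei (22 and 43) went from 2253 to 2077 CPM (0.922, 0.748–1.14), an interval that includes 1. These nuclei were few, and all intervals cover counting error only.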
